A study of Homo sapiens with 9 samples.

Results

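The D-type cyclins and the inhibitors of cyclin-dependent kinases were described in Ewing sarcoma cells that had become resistant to drugs against the IGF-1 receptor. The set held 10 genes chosen by name, of 19775 genes with a probe set of their own on the array. These were the D cyclins CCND1, CCND2 and CCND3, the CIP/KIP inhibitors CDKN1A, CDKN1B and CDKN1C, and the INK4 inhibitors CDKN2A, CDKN2B, CDKN2C and CDKN2D. A probe set carrying a single gene symbol was found for 9 of the 10. CDKN2C had none in the annotation used here and was not analysed. The 9 genes were read by 22 probe sets, and each gene's level was taken from whichever of them averaged highest on the 9 arrays. Of the 9 genes, 8 reached 5 on the log2 scale on at least 2 arrays and were tested among 14172 genes. CDKN2B did not reach it and is given by its levels.

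D cyclins bind the kinases CDK4 and CDK6, which phosphorylate the retinoblastoma protein and so free the E2F factors that switch on S-phase genes. INK4 proteins bind CDK4 and CDK6 directly and keep the D cyclins out, whereas CIP/KIP proteins bind assembled cyclin and kinase complexes and act most strongly on CDK2. Signalling from the IGF-1 receptor through AKT and ERK is known to raise D cyclins and to lower CDKN1B, in part through the FOXO factors. In Ewing sarcoma, CCND1 is known for its high expression, and CDKN2A is deleted in a share of tumours.

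Transcript levels came from 9 arrays of the Affymetrix type HG-U133 Plus 2. Of the 3 resistant lines, all derived from the Ewing sarcoma line TC-71, TC/AEW grew out under rising doses of NVP-AEW541 (highest 5 µM), which blocks the kinase of the receptor. For TC/AVE the agent was the receptor antibody AVE1642 (highest dose 10 µg/ml), and for TC/CP the receptor antibody figitumumab (highest dose not stated). Exposure lasted at least 6 months, and the labels name no TC-71 cells carried alongside, so months in culture and resistance cannot be told apart. Each resistant line is 1 selected population with 2 technical arrays, averaged into 1 sample, and TC-71 had 3 samples with 1 array each. All lines were kept in Iscove medium with 10% serum, and the labels do not say whether the agents were present at harvest. All levels below are log2 RMA values. Differences are a resistant line minus TC-71 on the log2 scale, ± the standard error (SE) moderated by limma, and TC-71 levels are means ± SD (n = 3). In a single-line comparison a gene's own spread came from the 3 TC-71 samples alone. Limma moderated it with the spread of all genes tested.

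Technical arrays of a line correlated at 0.996 to 0.998 and the TC-71 samples with each other at 0.963 to 0.983, across genes, which are no independent replicates. The years in the submitters' array file names put TC-71 sample 1 in one array set, both TC/AEW and TC/AVE with TC-71 sample 2 in another, and TC/CP with TC-71 sample 3 in the last. Differences within a set are therefore given beside the pooled ones. The Ewing markers CD99, NKX2-2, STEAP1, FLI1 and LIPI were at or above 5 on all 9 arrays, and NR0B1 was not analysed here. LIPI was lower in each resistant line, with means of 5.82 in TC/AEW, 5.23 in TC/AVE and 5.33 in TC/CP, against 7.01 ± 0.49 in TC-71. Of the measured markers of other cells, 2 of 4 for blood (PTPRC, CD14), 2 of 4 for endothelium (CDH5, KDR) and 2 of 5 for epithelium (EPCAM, CDH1) were below 5 on every array. Above 5 on all 9 arrays were HBB for blood (5.74 to 6.13), PECAM1 for endothelium (6.06 to 6.39), and KRT8 (5.31 to 6.28) and KRT18 (5.50 to 7.02) for epithelium. KRT18 averaged 5.88 in TC/AEW, 5.79 in TC/AVE and 5.65 in TC/CP, against 6.82 ± 0.18 in TC-71. The remaining 3, CD3E, VWF and KRT19, reached 5 on some arrays. HBB is a globin gene of red blood cells, so background may reach above 5, and a difference that starts below about 6 on the log2 scale may be a lower bound on its size.

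No D cyclin or inhibitor passed an adjusted p of 0.05 in any of the 6 comparisons, against 3 genes of 14172 (0.0212%) in the resistant lines in common and 0 in the others. At an unadjusted p under 0.05 the genes passing were CCND2 in TC/AEW (1 of 8, against 3.52% of all genes), CDKN2D in TC/AVE (1 of 8, against 7.23%) and none in TC/CP (0 of 8, against 4.93%). Between the resistant lines the genes passing unadjusted were CCND2 when TC/AEW was set against both antibody-selected lines (1 of 8, against 1.81%) and CDKN2D in TC/AVE against TC/CP (1 of 8, against 5.78%). For the lines in common 0 of 8 passed unadjusted, against 8.39% of all genes. No gene passed adjusted (0.0%) in the 5 other comparisons.

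At least 2-fold apart from TC-71 was 1 of 8 in TC/AEW, again CCND2, against 2.22% of all genes. With TC/AVE, TC/CP and the lines in common the count was 0 of 8 each, against 3.68%, 3.19% and 1.58% of all genes. Arrays that did not overlap TC-71 were found for 3 of 8 genes in TC/AEW (29.8% of all genes), 5 of 8 in TC/AVE (39.4%) and 5 of 8 in TC/CP (38.2%). For the kinase-inhibitor line the median size of the 8 differences was 0.21, beside 0.17 over all genes tested. It was 0.27 for TC/AVE, beside 0.20, and 0.48 for TC/CP, beside 0.19. The 8 genes also varied more among the TC-71 samples, with a median SD of 0.32, beside 0.22 over all genes tested. The set thus held 1 large difference, CCND2 in the kinase-inhibitor line.

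**Figure D1:**
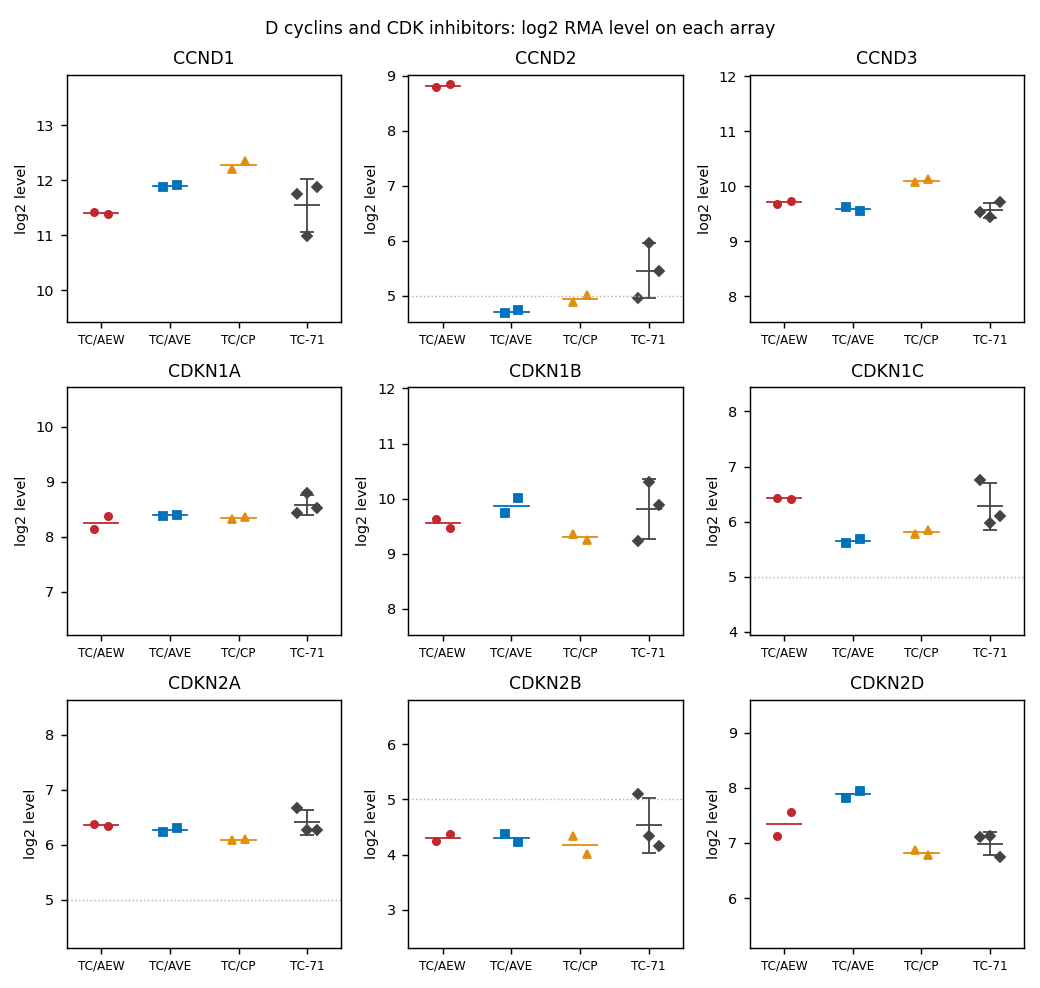
Log2 RMA level of the 9 genes with a probe set, 1 panel per gene, all panels spanning the same number of log2 units. Points are single arrays of the resistant lines with a line at their mean, and the 3 TC-71 samples with mean ± SD; the dotted line marks 5. CCND2 in TC/AEW, at 8.80 and 8.84, stands far above TC-71, and TC/AVE stands highest for CDKN2D at 7.82 and 7.94.

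The upstream sequences of CDKN1A and CDKN2D are shown because CDKN1A was the one gene of the set below every TC-71 sample on all 6 arrays of resistant lines, and CDKN2D had the widest difference in an antibody-selected line. They are the 250 bases before the transcription start that the sequence table lists, written 5′ to 3′, from RefSeq on GRCh38.p14. CDKN1A lies at chr6:36678464-36678713 on the plus strand and CDKN2D at chr19:10568980-10569229 on the minus strand. Capitals mark GC boxes (GGGCGG on either strand), bound by SP1-family factors, and CCAAT boxes (CCAAT on either strand), bound by NF-Y.
CDKN1A: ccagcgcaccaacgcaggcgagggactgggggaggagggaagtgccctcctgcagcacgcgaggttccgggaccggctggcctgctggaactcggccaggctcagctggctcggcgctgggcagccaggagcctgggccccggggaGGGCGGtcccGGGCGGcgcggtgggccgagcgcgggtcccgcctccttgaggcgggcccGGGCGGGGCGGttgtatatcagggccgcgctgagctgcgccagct
CDKN2D: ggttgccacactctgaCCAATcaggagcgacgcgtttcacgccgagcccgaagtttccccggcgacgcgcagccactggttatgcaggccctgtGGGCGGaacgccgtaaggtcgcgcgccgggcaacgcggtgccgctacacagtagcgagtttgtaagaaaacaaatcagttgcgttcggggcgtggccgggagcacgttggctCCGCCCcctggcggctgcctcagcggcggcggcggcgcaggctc
CDKN1A carries 4 GC boxes, the last 2 of which overlap by 1 base, and CDKN2D carries 2 GC boxes and 1 CCAAT box. A GC box was found in 42.6% and a CCAAT box in 32.0% of the 35116 windows of this length in the table. The FOXO motif GTAAACA, on either strand, was found in 0 of the 12 windows listed for 7 of the 10 genes and in 2.98% of all windows. A match is a run of letters and not a measured site. CCND1, CCND2 and CDKN1C had no entry.

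CCND2 (chr12:4273762-4305353, RefSeq on GRCh38.p14), a D cyclin that many cell types use in place of CCND1 or beside it, stood far above TC-71 in the line selected with the kinase inhibitor. CCND2 read 8.80 and 8.84 on the TC/AEW arrays, 4.70 and 4.74 on the TC/AVE arrays and 4.89 and 5.01 on the TC/CP arrays, against 4.97, 5.96 and 5.45 in the TC-71 samples. Both TC/AEW arrays lay above all TC-71 samples, both TC/AVE arrays below all of them, and TC/CP overlapped the lowest. Because RNA of whole cultures was measured, a larger share of expressing cells and more RNA per cell cannot be told apart. The difference of TC/AEW from TC-71 was 3.36 ± 0.41 (10.3-fold, 95% interval 2.30 to 4.43), with an unadjusted p of 0.00045 and an adjusted p of 0.670 by limma. By size it ranked 3 of 14172 in that comparison. It was 2.87 against the TC-71 sample of the same array set, and 3.12, 3.61 and 3.36 without TC-71 sample 1, 2 and 3 in turn. With TC-71 between 4.97 and 5.96, the fold may be a lower bound.

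Against the 2 antibody-selected lines, CCND2 in TC/AEW was 3.99 ± 0.44 higher (15.8-fold, 1 of 8 genes at least 2-fold apart, against 1.28% of all genes; adjusted p = 0.575 by limma), the largest in size of 14172 genes in that comparison. Within the array set that holds both lines, TC/AEW stood 4.10 above TC/AVE. The antibody-selected lines were -0.74 ± 0.41 (TC/AVE, adjusted p = 0.820 by limma) and -0.51 ± 0.41 (TC/CP, adjusted p = 0.998 by limma) from TC-71. Both lay near 5, the level of the filter on low values, so these differences may be lower bounds. In order of level, TC/AEW stood first with a wide gap, followed by TC-71, TC/CP and TC/AVE, whose neighbours differed by less than or about the TC-71 SD of 0.50. For the resistant lines in common the difference was 0.71 ± 1.03 (adjusted p = 0.883 by limma), and it was -0.62 ± 0.30 (adjusted p = 0.879) without TC/AEW.

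The other CCND2 probe sets also read highest in TC/AEW. Probe set 200951_s_at read 5.86 and 6.23 in TC/AEW, against 4.14, 5.08 and 4.24 in TC-71. Probe set 200952_s_at read 4.60 and 4.87 in TC/AEW, against 4.36, 3.42 and 3.72 in TC-71, all below 5. Probe set 231259_s_at read 5.54 and 5.17 in TC/AEW, against 4.91, 5.04 and 5.14 in TC-71. Both TC/AEW arrays lay above all TC-71 samples in each of the 4 probe sets, by very different amounts (3.36, 1.56, 0.90 and 0.32 between the means). With the median of the probe sets that passed the filter as the gene's value, the difference was 1.00 ± 0.22 (adjusted p = 0.955 by limma). TC/AVE lay below all TC-71 samples in 200953_s_at and 200951_s_at, and overlapped them in 200952_s_at and 231259_s_at.

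**Figure D2:**
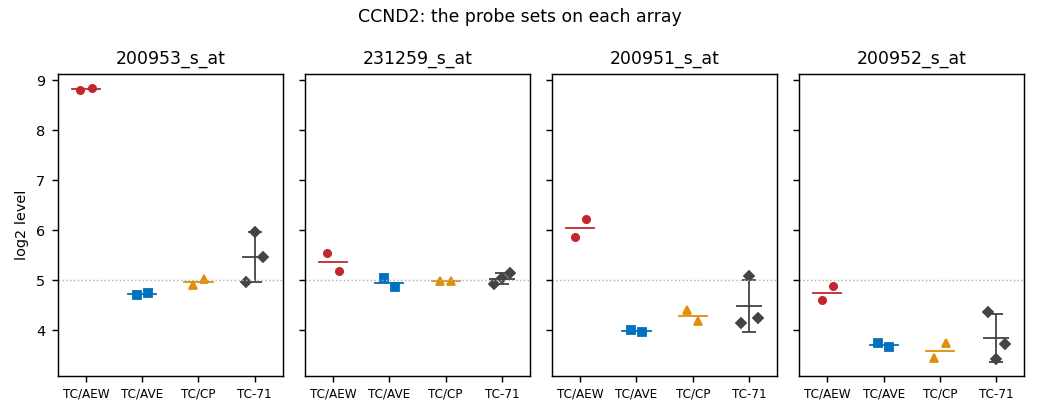
Log2 level of the 4 CCND2 probe sets, in order of their mean, on a shared axis; points are arrays, the lines mark line means, TC-71 has mean ± SD over 3 samples, and the dotted line marks 5. TC/AEW is highest in every panel, from 8.80 and 8.84 in 200953_s_at down to 4.60 and 4.87 in 200952_s_at.

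Fibroblast markers were set beside CCND2 because 1 of them moved with it. LUM, the matrix proteoglycan lumican, read 8.49 and 8.24 on the TC/AEW arrays, against 3.55, 6.51 and 5.61 in TC-71, and 3.78 and 5.38 as the means of TC/AVE and TC/CP. Of the 5 fibroblast markers, 4 were above the TC-71 mean in TC/AEW and FAP was not. The count was also 4 in TC/AVE, and it was 3 in TC/CP. DCN was highest in TC/AVE (mean 8.55, against 8.20 in TC/AEW) and COL1A1 in TC/CP (9.04, against 7.87 in TC/AEW). The summed level of the list was 34.3 in TC/AEW, 30.1 in TC/AVE and 30.7 in TC/CP, against 28.3 in the lowest, 30.9 in the middle and 31.4 in the highest TC-71 sample. None of the markers was under 5 on all 9 arrays, and DCN and COL1A1 were at or above 5 on every array, TC-71 included. The part of these cells or of these genes in the CCND2 difference was not tested.

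The genes whose pattern over the 6 samples was most like CCND2 were found among 2865 genes with a range of at least 1. WASF3 had a Pearson correlation of 0.987 with CCND2, HCLS1 0.981, HSPA2 0.978, IGFBPL1 0.970 and MAOA 0.964. WASF3 and HCLS1 regulate branched actin, HSPA2 is a heat shock chaperone and MAOA oxidises monoamines. WASF3 read 6.86 in TC/AEW, 4.05 in TC/AVE and 4.40 in TC/CP, against 4.12, 4.57 and 4.57 in TC-71, so it too is high in TC/AEW alone. MAOA read 7.05 in TC/AEW, 5.28 in TC/AVE and 5.39 in TC/CP, against 5.69, 5.73 and 5.93 in TC-71. The most opposed were KIRREL1 (-0.927), CD1D (-0.911), SYNJ2 (-0.894), TIMM23B (-0.891) and HERC2P7 (-0.885). All these correlations rest mainly on 1 sample, TC/AEW, and are given as a description over 6 samples. By sample level, WASF3, HSPA2 and IGFBPL1 lay below 5 in every sample but TC/AEW. They thus met the filter on low values through TC/AEW, the line in which CCND2 is high. Their likeness to CCND2 is therefore partly built in by the selection of genes.

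CCND1 (chr11:69641156-69654474), the D cyclin best known in Ewing sarcoma, was read high in every sample and showed no common shift against the pooled TC-71 samples. CCND1 read 11.42 and 11.38 in TC/AEW, 11.88 and 11.90 in TC/AVE and 12.20 and 12.35 in TC/CP, against 11.76, 10.99 and 11.88 in TC-71. TC/CP and TC/AVE lay above all TC-71 samples, TC/AVE by little, and TC/AEW lay between them. The differences were -0.14 ± 0.40 in TC/AEW (adjusted p = 1.000), 0.35 ± 0.40 in TC/AVE (adjusted p = 1.000) and 0.73 ± 0.40 in TC/CP (1.66-fold, adjusted p = 0.998), all by limma. TC/AEW stood -0.68 ± 0.43 from the antibody-selected lines (adjusted p = 1.000 by limma).

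TC-71 sample 2 was the lowest CCND1 reading of all, so the comparison within array sets looked different. Against the TC-71 sample of their own set, TC/AEW stood 0.41 higher, TC/AVE 0.90 higher and TC/CP 0.40 higher. The second CCND1 probe set, 208711_s_at, read 11.25 and 11.28 in TC/AEW, 11.54 and 11.48 in TC/AVE and 11.32 and 11.17 in TC/CP, against 11.20, 10.69 and 10.77 in TC-71. Within array sets this probe set was 0.58, 0.83 and 0.48 higher in the kinase-inhibitor line, TC/AVE and TC/CP. Both probe sets thus gave all 3 lines above the TC-71 sample of their set, while only the second placed TC/AEW above the pooled TC-71 mean (0.38, against -0.14 in the first). With the array set as a block, the lines in common were 0.54 ± 0.19 higher for CCND1 (adjusted p = 0.466 by limma), against 0.31 ± 0.30 (adjusted p = 0.827) without it. Leaving out TC-71 sample 2 gave 0.04 ± 0.26 in common, and -0.42, 0.08 and 0.45 in TC/AEW, in TC/AVE and in TC/CP. A within-set difference rests on 1 TC-71 sample, and its error was not measurable.

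CCND3 (chr6:41934933-42050035), the D cyclin most used in blood cells and muscle, differed little between samples except in TC/CP. CCND3 read 9.69 and 9.73 in TC/AEW, 9.62 and 9.55 in TC/AVE and 10.09 and 10.12 in TC/CP, against 9.53, 9.43 and 9.72 in TC-71. Only the TC/CP arrays lay beyond all TC-71 samples. The difference in TC/CP was 0.54 ± 0.23 (1.46-fold, unadjusted p = 0.0612, adjusted p = 0.998 by limma) and 0.39 within its array set. With the median over its 2 probe sets it was 0.16 ± 0.24. TC/AVE stood -0.52 ± 0.28 from TC/CP (adjusted p = 0.993 by limma). The second CCND3 probe set, 1562028_at, lay between 4.73 and 5.39 on all arrays and did not show TC/CP high.

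By their leading probe sets, CCND2 stood highest in TC/AEW, and CCND1 and CCND3 in TC/CP. For CCND1 the line depended on the probe set, since 208711_s_at averaged 11.51 in TC/AVE and 11.25 in TC/CP. Whether the lines differ in their D cyclin was not tested beyond the comparisons given for each gene, none of which passed.

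**Figure D3:**
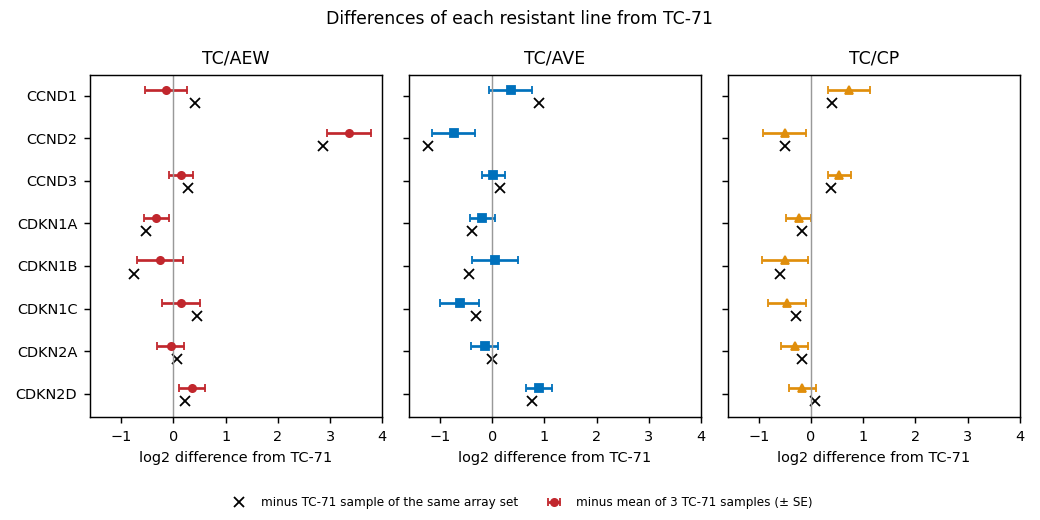
Log2 difference of each resistant line from TC-71 for the 8 tested genes. Coloured points are against the mean of 3 TC-71 samples ± moderated SE, and crosses are against the 1 TC-71 sample of the same array set. CCND2 in TC/AEW stands at 3.36 and 2.87, every CCND1 cross lies above 0 (0.41, 0.90 and 0.40), and every CDKN1A and CDKN1B cross lies below 0.

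Among the CIP/KIP inhibitors, CDKN1A was lower in every resistant line by a small amount. CDKN1A (chr6:36676463-36687332) encodes p21, an inhibitor best known for holding back CDK2. CDKN1A read 8.14 and 8.37 in TC/AEW, 8.38 and 8.40 in TC/AVE and 8.33 and 8.35 in TC/CP, against 8.44, 8.78 and 8.52 in TC-71. All 6 arrays of the lines lay below all 3 TC-71 samples, a separation found for 1 of the 8 genes and for 9.53% of all genes in either direction (4.33% below). The gap was narrow, since the highest line array was 8.40 and the lowest TC-71 sample 8.44. The lines in common differed by -0.25 ± 0.14 (1.19-fold lower, 95% interval -0.58 to 0.08, adjusted p = 0.697 by limma). Without TC-71 sample 2, the highest, the common difference was -0.15 ± 0.13, and the lines stood at -0.22, -0.09 and -0.14 in TC/AEW, in TC/AVE and in TC/CP. Within array sets CDKN1A was -0.53 in TC/AEW, -0.40 in TC/AVE and -0.18 in TC/CP.

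CDKN1B (chr12:12717368-12722369), which encodes p27 and is held down by IGF and AKT signalling, varied more between TC-71 samples (SD 0.54) than between line means (SD 0.28). CDKN1B read 9.64 and 9.46 in TC/AEW, 9.73 and 10.00 in TC/AVE and 9.36 and 9.26 in TC/CP, against 9.23, 10.31 and 9.89 in TC-71. All 3 lines lay inside the TC-71 range. The differences were -0.26 ± 0.44 in TC/AEW, 0.06 ± 0.44 in TC/AVE and -0.50 ± 0.44 in TC/CP. Against the TC-71 sample of the same array set they were -0.76, -0.44 and -0.59, so the lines stood lower in each set that held both. With the array set as a block the lines in common differed by -0.59 ± 0.14 (adjusted p = 0.366 by limma), against -0.24 ± 0.29 (adjusted p = 0.861) without it. The fit with no block gave -0.52 when TC-71 sample 1 was left out and 0.01 when sample 2 was. The low TC-71 reading of 9.23 was sample 1, the sample with no resistant line in its set.

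CDKN1C (chr11:2883218-2885775), which encodes p57, an imprinted inhibitor linked to growth restraint, separated TC/AEW from the antibody-selected lines in several probe sets. Its leading probe set, 213182_x_at, read 6.43 and 6.41 in TC/AEW, 5.62 and 5.68 in TC/AVE and 5.78 and 5.85 in TC/CP, against 6.75, 5.97 and 6.10 in TC-71. TC/AVE and TC/CP lay below all TC-71 samples, and TC/AEW lay inside their range. Within array sets this probe set was 0.45 in TC/AEW, -0.32 in TC/AVE and -0.29 in TC/CP. TC/AEW stood 0.69 ± 0.39 above the antibody-selected lines (1.61-fold, adjusted p = 1.000 by limma). Probe set 213348_at, the one of these whose name does not mark it as prone to cross-hybridisation, read 6.03 and 6.15 in TC/AEW, 5.27 and 5.33 in TC/AVE and 5.13 and 5.46 in TC/CP, against 5.72, 5.79 and 5.89 in TC-71. There TC/AEW lay above, and both antibody-selected lines below, all TC-71 samples.

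The other 2 CDKN1C probe sets that passed the filter had the line means in the order of the leading one. Probe set 219534_x_at had means of 6.57 in TC/AEW, 5.67 in TC/AVE and 5.93 in TC/CP, against 6.06 ± 0.15 in TC-71. Probe set 216894_x_at had means of 6.45 in TC/AEW, 5.76 in TC/AVE and 5.95 in TC/CP, against 6.01 in all 3 TC-71 samples. Its technical arrays lay far apart, at 6.23 and 6.66 in TC/AEW and at 5.44 and 6.08 in TC/AVE. In all 4 probe sets TC/AEW was above both antibody-selected lines, by 0.68 to 0.90 over TC/AVE in their shared array set. The levels lay between 5.13 and 6.75, close to background, and the fifth probe set stayed below 5 throughout (4.20 to 4.81).

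**Figure D4:**
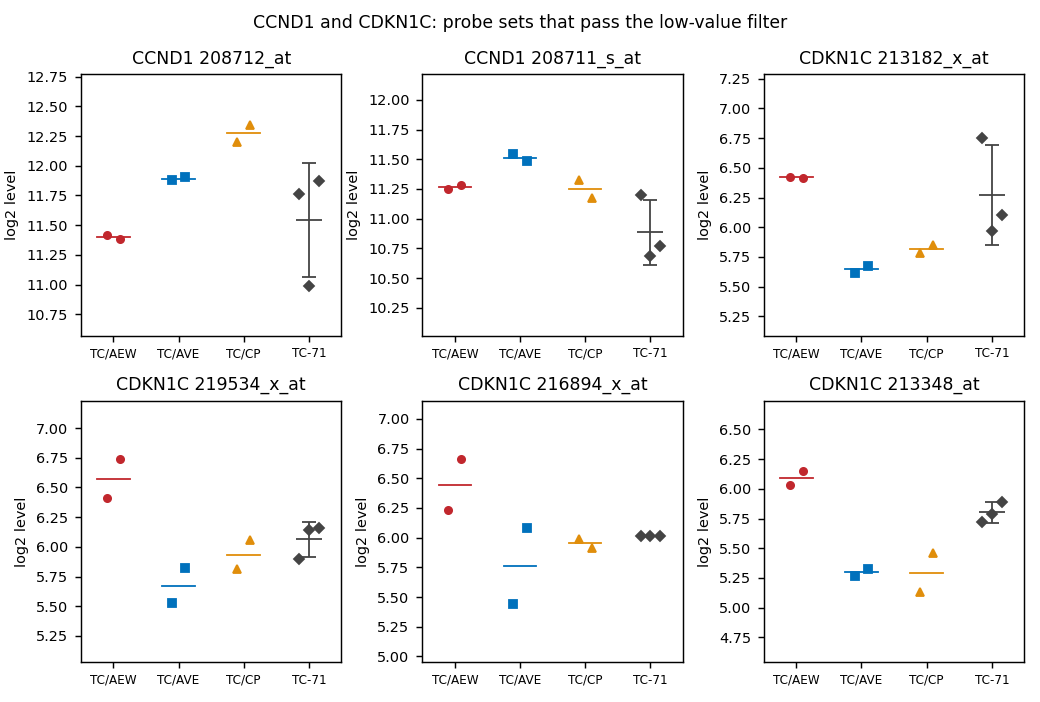
Log2 level of the CCND1 and CDKN1C probe sets that reach 5 on at least 2 arrays, all panels spanning the same number of log2 units. Points are arrays, lines are line means, and TC-71 has mean ± SD over 3 samples. TC-71 sample 2 is lowest in both CCND1 panels (10.99 and 10.69), and TC/AEW stands above TC/AVE and TC/CP in each CDKN1C panel.

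Among the INK4 inhibitors, CDKN2D was highest in TC/AVE. CDKN2D (chr19:10566460-10568979) encodes p19, an INK4 protein whose level changes through the cell cycle. CDKN2D read 7.13 and 7.55 in TC/AEW, 7.82 and 7.94 in TC/AVE and 6.87 and 6.78 in TC/CP, against 7.10, 7.12 and 6.74 in TC-71. Both TC/AVE arrays lay well above all TC-71 samples, the TC/AEW arrays lay just above to moderately above them, and TC/CP overlapped them. The difference in TC/AVE was 0.89 ± 0.25 (1.86-fold, 95% interval 0.24 to 1.55, unadjusted p = 0.0171, adjusted p = 0.580 by limma), and 0.76 within its array set.

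TC/AVE also stood above TC/CP for CDKN2D, by 1.06 ± 0.31 (2.08-fold, unadjusted p = 0.0193, adjusted p = 0.702 by limma). At least 2-fold apart between these lines were 1 of 8 genes of the set and 4.72% of all genes. The difference in TC/AEW was 0.35 ± 0.25 and that in TC/CP -0.17 ± 0.25. The order of levels was TC/AVE, TC/AEW, TC-71 and TC/CP, and TC-71 and TC/CP differed by less than the TC-71 SD of 0.21. The second CDKN2D probe set stayed between 4.36 and 4.73 and did not show the difference.

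CDKN2A and CDKN2B, neighbours on chromosome 9 that encode p16 with ARF and p15, were read low, and CDKN2A was above 5 on all arrays in 1 of its probe sets. Of the 3 CDKN2A probe sets only 209644_x_at, of the kind prone to cross-hybridisation, reached 5 on at least 2 arrays. CDKN2A read there 6.37 and 6.33 in TC/AEW, 6.23 and 6.30 in TC/AVE and 6.09 and 6.11 in TC/CP, against 6.67, 6.28 and 6.28 in TC-71. The other 2 ran from 3.19 to 3.79 and from 4.31 to 5.33. CDKN2B ran from 4.01 to 5.09 in its leading probe set and from 2.99 to 3.39 in the other. The 2 readings above 5 in these probe sets, 5.33 for CDKN2A and 5.09 for CDKN2B, both came from TC-71 sample 1. The CDKN2A difference was largest in TC/CP, at -0.31 ± 0.26 (adjusted p = 0.998 by limma). Without TC-71 sample 1 it was -0.18. The levels below 5 do not tell a silent gene from a deleted one.

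The partners of the D cyclins and inhibitors were read from 4 lists of 37 genes, of which 36 were tested and 0 passed over all genes in any comparison. In the lines in common, all 6 line arrays lay beyond all TC-71 samples for 4 of the 36 (11.1%, against 9.53% of all genes). Above were MYC and SKP2, and below were CDK4 and AMBRA1.

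CDK4, the kinase that D cyclins activate, was slightly lower in each line. CDK4 read 11.63 and 11.80 in TC/AEW, 11.84 and 11.90 in TC/AVE and 11.99 and 11.93 in TC/CP, against 12.21, 12.04 and 12.18 in TC-71. The lines in common differed by -0.29 ± 0.13 (adjusted p = 0.603 by limma). Within array sets CDK4 was -0.33 in TC/AEW, -0.17 in TC/AVE and -0.22 in TC/CP. CDK6, the other partner kinase, read 6.40 and 6.41 in TC/AEW, 5.89 and 6.01 in TC/AVE and 6.34 and 6.44 in TC/CP, against 6.22, 6.06 and 6.28 in TC-71. Within array sets it was 0.35 in TC/AEW, -0.11 in TC/AVE and 0.11 in TC/CP. The list of partner kinases and next cyclins had 2 of 7 genes higher and 5 lower in the lines in common (48.9% of all genes were higher), with a median of -0.11, beside -0.01 over all genes. CCNE2, the E cyclin with the widest differences, read close to the TC-71 sample of the same array set. It read 9.79 and 9.76 in TC/CP against 10.01 in TC-71 sample 3, and 8.61 and 8.74 in TC/AEW against 8.61 in TC-71 sample 2. Each of these sets held 1 TC-71 sample, and the part of the array set was not tested.

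Among pocket proteins and E2F factors, 3 of 13 were higher and 10 lower in the lines in common, with a median of -0.07. By line the split against the pooled TC-71 samples differed. TC/AEW and TC/AVE each had 4 of these genes higher and 9 lower, while TC/CP had 8 higher and 5 lower and a median difference of 0.12. Within array sets this split was not kept. In TC/AEW, E2F2, E2F4, E2F7 and TFDP1 turned higher (0.32, 0.06, 0.05 and 0.07, against -0.45, -0.13, -0.21 and -0.36 pooled). In TC/AVE, E2F1, E2F4 and E2F8 turned higher (0.05, 0.19 and 0.12, against -0.18, -0.004 and -0.11 pooled). TFDP2 turned lower there (-0.36, against 0.08 pooled). In TC/CP, E2F2, E2F3 and E2F8 turned lower (-0.03, -0.01 and -0.28, against 0.24, 0.53 and 0.16 pooled). E2F4 and E2F5 turned higher in TC/CP (0.05 and 0.05, against -0.02 and -0.03 pooled). RBL2, the pocket protein p130 of resting cells, read 8.48 and 8.39 in TC/AEW, 8.99 and 8.97 in TC/AVE and 8.58 and 8.40 in TC/CP, against 7.82, 8.43 and 8.24 in TC-71. It was 0.82 ± 0.31 higher in TC/AVE (adjusted p = 0.673 by limma), the line in which CDKN2D was highest, and 0.55 higher within that array set. TFDP2, a dimer partner of the E2F factors, was 0.83 ± 0.35 higher in TC/AEW (adjusted p = 1.000 by limma), and 0.38 within the array set. E2F3 read 9.55 and 9.52 in TC/CP, against 9.54 in the TC-71 sample of the same set and 8.85 and 8.61 in the other TC-71 samples.

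Of the genes for turnover and activation, 4 of 11 were higher and 7 lower in the lines in common. SKP2, the ubiquitin ligase subunit that targets CDKN1B protein, read 11.91 and 11.83 in TC/AEW, 11.81 and 11.87 in TC/AVE and 11.99 and 11.94 in TC/CP, against 11.56, 11.36 and 11.65 in TC-71. It was 0.37 ± 0.13 higher in the lines in common (1.29-fold, unadjusted p = 0.0268, adjusted p = 0.521 by limma). AMBRA1, the ligase adaptor that targets D cyclins, was -0.21 ± 0.12 in the lines in common (adjusted p = 0.691 by limma). Both genes separated the lines from TC-71 without overlap, and both kept their direction within the array sets, at 0.51, 0.48 and 0.31 for SKP2 and -0.22, -0.22 and -0.12 for AMBRA1.

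Of 6 regulators of transcription of these genes, 5 were tested, with 2 higher and 3 lower in the lines in common. BMI1 was not analysed here. MYC, which activates CCND2 and represses CDKN1A in other cells, read 12.93 and 12.98 in TC/AEW, 12.71 and 12.74 in TC/AVE and 12.61 and 12.63 in TC/CP, against 12.37, 12.46 and 12.21 in TC-71. It was 0.42 ± 0.14 higher in the lines in common (1.34-fold, unadjusted p = 0.0224, adjusted p = 0.498 by limma). Within array sets MYC was 0.49 in TC/AEW, 0.26 in TC/AVE and 0.41 in TC/CP. FOXO3, which activates CDKN1B in many cells, read 9.09 and 9.11 in TC/AEW, 8.51 and 8.52 in TC/AVE and 8.71 and 8.69 in TC/CP, against 8.80, 9.46 and 9.17 in TC-71. TC/AVE and TC/CP lay below all TC-71 samples and TC/AEW lay inside the TC-71 range. Within array sets FOXO3 was -0.36 in TC/AEW, -0.95 in TC/AVE and -0.47 in TC/CP.

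**Figure D5:**
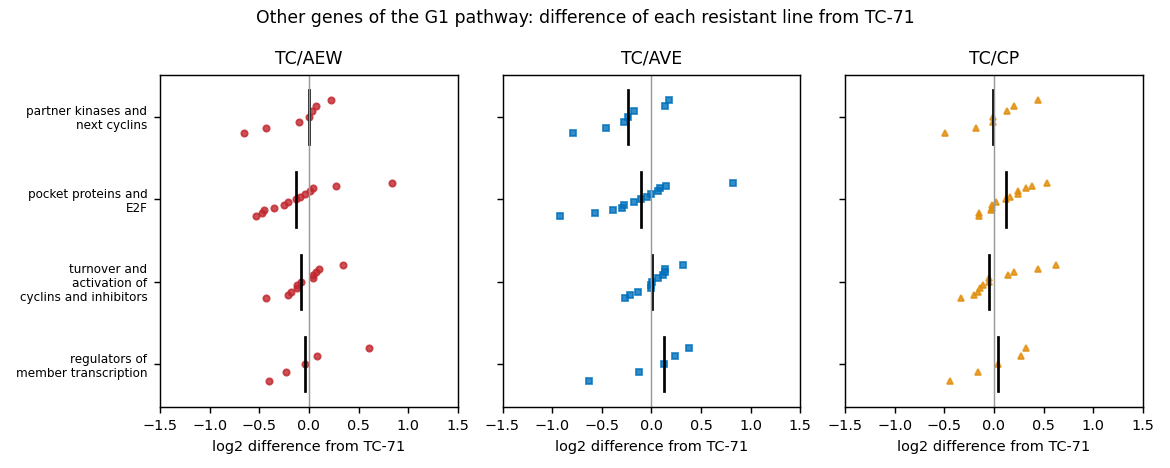
Log2 difference from the TC-71 mean for the 36 tested genes of the 4 pathway lists, 1 point per gene and 1 panel per line, with a black bar at each list's median. List medians run from -0.24 to 0.13, and the widest points are E2F2 (-0.92) and RBL2 (0.82) in TC/AVE and TFDP2 (0.83) in TC/AEW.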

How the data were processed

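RNA was isolated with TRIzol and biotin-labelled from 2 µg, per the labels' protocols. The authors deposited log2 values per probe set from RMA (package affy, named in the submitters' processing notes without a version). The 62 control probe sets were left out. Of the remaining 54613, 41091 carried a single gene symbol in the platform annotation, and 0 symbols needed updating through a RefSeq table (GRCh38.p14). A gene was its probe set with the highest mean over 9 arrays, kept where at least 2 arrays reached 5. Technical arrays were averaged. Differences were tested two-sided with limma 3.58.1 in R 4.3.3, with Benjamini-Hochberg adjustment over 14172 genes: 4 groups for single lines and lines against each other (2 residual and 3.01 prior degrees of freedom), and 2 groups for the lines in common (4 and 3.06). The fits were tested on simulated data with 200 changed genes. For TC/AEW against TC-71, 0% of genes changed by 1 or by 2 on the log2 scale were called, and 89.5% of those changed by 3. For the lines in common the shares were 0% at 1, 84% at 2 and 96.5% at 3. These shares hold where 200 genes change by the same amount, which makes the adjustment easier to pass. In the data, CCND2 in TC/AEW differed by 3.36, ranked 3 of 14172 by size, and did not pass. The 89.5% is therefore no measure of power in these data. A gene that did not pass may still differ by any of these amounts. The study calls the TC-71 samples biological replicates and does not say whether they were separate cultures, so the p-values reflect the spread among these arrays alone, which may be technical. Precision is limited by how many arrays there are.

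Members and pathway lists were chosen with earlier results of these data known. Named were all members, at most 3 genes per list and comparison by size of difference, and the 5 genes most and least like the member of widest range. Pocket protein and E2F genes whose sign turned within array sets were named as well. Alternatives changed probe set, filter, scaling, variance prior, replicate handling and array set, or left out samples. One listed gene and the list tied to it are not reported here.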

Additional observations from a re-analysis of the deposited data

Results flagged for a closer look

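CCND2 was singled out because, in its leading probe set, the lines stood on opposite sides of the parental samples. Both TC/AEW arrays were above, and both TC/AVE arrays below, every TC-71 sample, and the 2 line means were 4.10 apart on the log2 scale. Probe set 200951_s_at showed the same sides, with the means 2.07 apart. In 200952_s_at and 231259_s_at TC/AVE overlapped TC-71, and the means were 1.04 and 0.41 apart. TC/AEW and TC/AVE were not tested against each other alone. The comparison of TC/AEW with both antibody-selected lines gave 3.99 ± 0.44 (adjusted p = 0.575 by limma). The TC/AVE readings of 4.70 and 4.74 were below 5, near background.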

How the results depend on the processing

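With 1 sample per resistant line and 3 of TC-71, no gene of the set passed in any alternative that kept the technical arrays together. Of 656 recomputed member differences, 643 kept their side of the threshold and showed no change of sign larger than the SE. The exception in sign was CCND2 in the lines in common, at -0.62 without TC/AEW. Counting all 9 arrays separately, so that a line's technical pair passes for 2 samples, brought CCND2 in TC/AEW (adjusted p = 0.000523 by limma), CDKN2D in TC/AVE (0.0108) and CCND3 in TC/CP (0.0257) past the threshold, with CCND2, CCND3 and CDKN2D differences between lines. The CCND2 difference in TC/AEW was 1.00 with the median over probe sets.

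Over all genes, counting the 9 arrays separately called 545 genes for TC/AEW, 1871 for TC/AVE, 1013 for TC/CP, 288 between TC/AEW and the antibody-selected lines, 1905 between TC/AVE and TC/CP and 238 in the lines in common, against 0, 0, 0, 0, 0 and 3. The replicate numbers share nothing but the number: TC-71 numbers name separate samples and those of the lines name technical arrays. With them as a replicate block on the 9 arrays the counts were 352, 1241, 1240, 224, 1831 and 37. The median over probe sets called 5 genes in TC/AVE and 8 in the lines in common. For the lines in common the count was 0 with no filter and with the array set as a block, 6 with the filter at 6, 5 with array medians set equal and 6 with an intensity trend, and 0 to 5 when a sample, a line or one technical array of each line was left out. The cause of these shifts was not tested, beyond the change in genes and samples each brings.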
